A study of Homo sapiens with 9 samples.

Results

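The S100 calcium-binding protein genes were followed in OVCA433 cells, an established human line of ovarian serous adenocarcinoma, after knockdown of MPZL3, a predicted cell adhesion molecule. The 10 members (S100A2, S100A4, S100A6, S100A8, S100A9, S100A10, S100A11, S100A14, S100A16 and S100P) were taken by gene symbol from a count table of 58676 genes. Cells carried a lentiviral short hairpin RNA against MPZL3 (hairpin #1 or hairpin #3) or a control vector, and each of the 3 groups had 3 libraries, marked A, B and C, which the study calls biological replicates. All groups had been through lentiviral transduction and drug selection, and each was a transduced population rather than a clone. The study describes the control both as an empty vector and as a scrambled hairpin, so whether the control cells expressed a hairpin is uncertain. The question for these genes was whether their RNA levels moved with MPZL3 knockdown, and whether both hairpins gave the same change.

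S100 proteins are small EF-hand proteins that mostly work as dimers, opening a binding face for target proteins when calcium rises. Inside cells they bind annexins, cytoskeletal proteins and other targets, and some are released and bind the receptors RAGE (encoded by AGER) and TLR4. Most of the genes lie in a cluster on the long arm of chromosome 1 that also holds genes of the skin barrier, and several members are typical of epithelia or of myeloid cells.

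Some of these genes carry a shared short sequence near their start sites, shown here because members that fell strongly in knockdown and members that did not pass the test both hold it. Promoter windows of 300 bases (250 before to 50 after the RefSeq start site, GRCh38.p14) were found for all 10 members. The letters CAGGTG, an E-box, were searched on both strands (CACCTG marks the opposite strand) and were present in 7 of the 10 windows, against 20.6% of all 35116 promoter windows. The 6 matches that lie before the start site are printed 5′ to 3′ on the strand of the gene, within 30 bases, with the E-box letters in capitals. The positions are chr1:153563888-153563917 for S100A2, chr1:153545953-153545982 for S100A4, chr1:153391180-153391209 for S100A8, chr1:153357750-153357779 for S100A9, chr1:153616322-153616351 for S100A14 and chr4:6693648-6693677 for S100P. S100A9 and S100P lie on the plus strand and the others on the minus strand. For S100A2, S100A4, S100A8, S100A14 and S100P the stretch overlaps the span that the count table gives the gene over all its transcripts, and for S100A9 it lies outside it.
S100A14: aagagctgagctCAGGTGagctggctcctc
S100A9: taccacactgctCACCTGtgaagcaatctt
S100A2: cagtgtacccatCACCTGgcacctctgcag
S100A4: cccacgggtgccCACCTGggaacaggaggc
S100A8: gattgccacattCACCTGgttgagaaacca
S100P: ggcgccgagacaCAGGTGaacactgtaaaa
The match began at position -14 from the start site in S100A14, -18 in S100A2, -92 in S100A9 and -164 in S100A4. The S100A16 window held the letters after its start site, at position 44, while the S100A6, S100A10 and S100A11 windows did not hold them. The same 3 windows were the richest in CpG dinucleotides, with 31 in S100A6, 32 in S100A10 and 22 in S100A11, against a median of 14 over all windows and 2 to 8 in the other members. The TATAAA letters, searched on both strands, were found in S100A4, S100A8, S100A9 and S100P (4 of 10 members, against 11.5% of all windows), and the AP-1 letters TGANTCA in none of the members (7.71% of all windows). These matches are descriptions of letters in a window.

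Library totals ranged from 16850854 to 23890191 counts. Levels are given as CPM (each count divided by the library total and put on a common scale), adjusted for library composition with TMM factors, and for comparing genes as RPKM, which also divides by gene length. MPZL3 itself was at 19.5 CPM ± 3.42 (SD, n = 3) in control cells, 9.66% of that with hairpin #1 and 8.07% with hairpin #3. Of 12 markers of ovarian epithelial cells, 11 were tested, while WT1 had no count in any library. In knockdown 8 were lower and 1 (PAX8) higher, against 7.40% and 7.26% of all tested genes. Some of the lower ones, CDH1 among them, passed the filter on low counts through the control libraries only, so they had to differ. CDH1 (E-cadherin) went from 275 CPM to 0.112 and 0.148 CPM, and the summed level of the 12 markers was 11920 to 14870 CPM in control libraries, 5405 to 6913 with hairpin #1 and 5377 to 6063 with hairpin #3. The summed level of 8 fibroblast markers, of which 4 were tested, moved the other way. It was 19.0 to 23.0 CPM in control, 109 to 447 CPM with hairpin #1 and 501 to 870.2 CPM with hairpin #3. COL1A1 held most of the sum, and DCN had 0 counts throughout. FAP, which was not tested, did not share the rise. It had 18, 7 and 9 counts in control, 4, 12 and 6 with hairpin #1 and 3, 3 and 1 with hairpin #3. The part of the epithelial and fibroblast markers in the S100 results was not tested. In bulk RNA, fewer cells of a type and less RNA per cell cannot be told apart.

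MPZL3 knockdown cells had much less S100A14 and S100A9 RNA and less S100A11 and S100A10 RNA, while S100A16 fell by under 2-fold and S100A4 did not pass the test over both hairpins and S100A2 and S100A6 passed it only in some fits. Calls required both an adjusted p under 0.05 and a change of at least 2-fold. With the 6 knockdown libraries pooled against the 3 control libraries, 0 of the 8 tested members were called higher and 3 were called lower (S100A14, S100A9 and S100A11), where 7.40% of all 15975 tested genes were called lower 7.26% higher and 14.7% in either direction. Hairpin #1 against control gave 3 lower (8.55% of all tested genes), the same 3 members, and hairpin #3 gave 4 lower (7.83%), these 3 and S100A10. At an adjusted p under 0.05 with no fold threshold, 5 members were lower in pooled knockdown, against 17.0% of all tested genes. By the same measure 6 members passed with hairpin #1, S100A6 higher and the others lower (37.8% of all tested genes in either direction), and 6 were lower with hairpin #3 (18.1%). The median log2 fold change of the 8 members, S100A9 among them, was -0.71, and that of all tested genes was 0.0045. S100A9 passed the filter on low counts through the control libraries only, so it had to differ. Its place in these counts and in the median is a description, and it draws the median down. S100A8 and S100P did not pass that filter. Both hairpin comparisons use the same 3 control libraries.

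**Figure D1:**
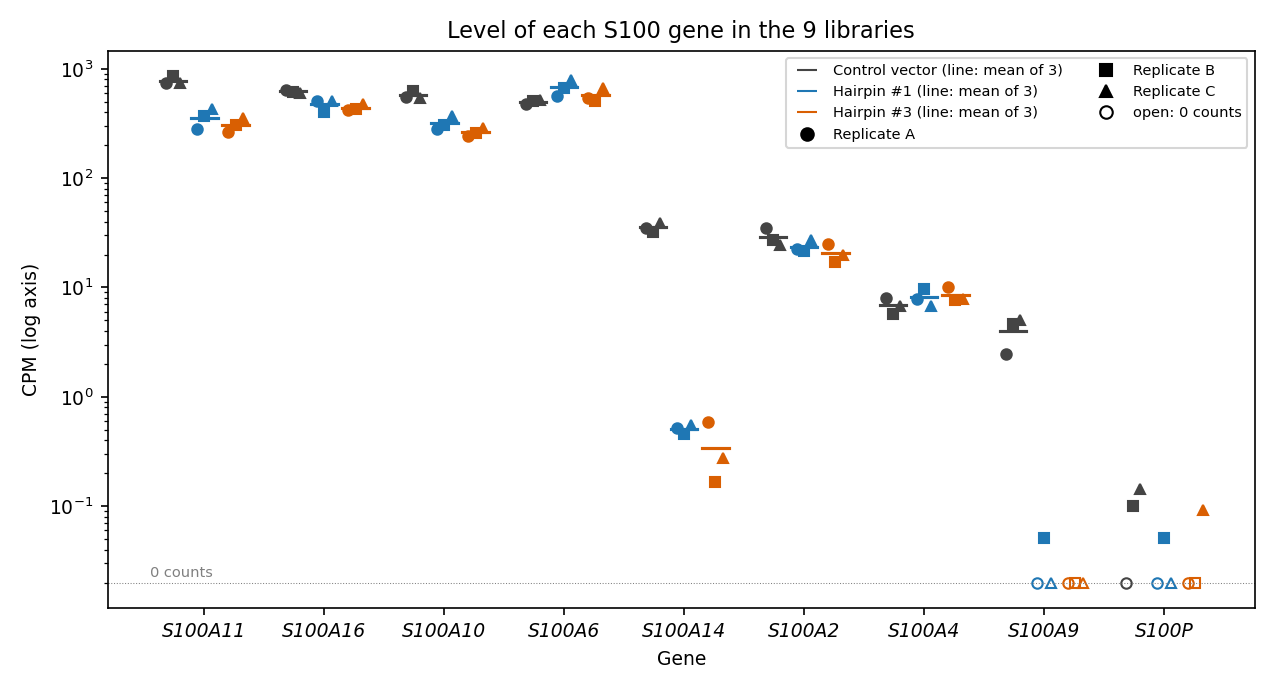
CPM on a log axis for 9 of the S100 members in each library, with colour for the group, shape for the replicate letter and a line at the mean of 3 libraries where all 3 had counts. Open symbols on the dotted line are libraries with 0 counts, S100A8 is left out because it had 0 counts in all 9 libraries, and the wide gap between control and knockdown is seen in S100A14 and S100A9.

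S100A14 is an S100 protein found mainly in epithelia. Its gene (ENSG00000189334, chr1:153614255-153616986, minus strand) had 730, 641 and 816 counts in control libraries A, B and C. There were 11, 9 and 13 counts with hairpin #1 and 10, 3 and 6 with hairpin #3. All 6 knockdown libraries were far under all 3 control libraries. Control cells averaged 35.4 CPM ± 3.55, hairpin #1 cells 0.510 ± 0.0499 and hairpin #3 cells 0.343 ± 0.220 (SD, n = 3), so 1.44% and 0.969% of the control level remained. Over both hairpins the log2 fold change was -6.35 (SE 0.22, adjusted p = 1.53e-09, edgeR quasi-likelihood test, Benjamini-Hochberg adjusted). The hairpins gave -6.09 and -6.70, and their difference of -0.60 (95% confidence interval -1.45 to 0.24) was not called (adjusted p = 0.384 by the same edgeR test).

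S100A9 pairs with S100A8 to form calprotectin, the abundant cytosolic protein of neutrophils and monocytes, which is also made by stressed epithelia. The S100A9 gene (ENSG00000163220, chr1:153357854-153361027, plus strand) had 51, 93 and 105 counts in the control libraries, a mean of 4.04 CPM ± 1.37 (SD, n = 3). Hairpin #1 libraries had 0, 1 and 0 counts and hairpin #3 libraries had none. Each knockdown library was thus at or under 3 counts, the limit that a count of 0 allows. S100A9 was 26.9-fold lower than control when each knockdown library was set to 3 counts. Hairpin #1 library B had 1 count, which allows a higher limit, so values that include it are not strict bounds. Its p-value is not given, because the gene entered the test through its control counts. Taken alone and set in the same way, hairpin #1 was 28.75-fold lower and hairpin #3 at least 25.3-fold lower. These limits cover counting error only.

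S100A8 (ENSG00000143546, chr1:153390032-153391188, minus strand), the partner of S100A9, had 0 counts in all 9 libraries, which allows up to 0.129 to 0.176 CPM depending on the library. S100A9 RNA was thus counted in control cells where S100A8 RNA was not detectable at this depth. S100A12, the other myeloid S100 gene of this cluster, also had 0 counts in all libraries. The summed level of 10 myeloid markers lay between 0.368 and 2.06 CPM over all 9 libraries, overlapped between the groups, and 5 of the 10 (LYZ, FCN1, TYROBP, AIF1 and MPO) had no count in any library. Their part in the S100A9 result was not tested. S100P, a placental S100 protein that binds ezrin and can act through RAGE when released, is the member on another chromosome (ENSG00000163993, chr4:6693069-6697170, plus strand). It had 0, 2 and 3 counts in control, 0, 1 and 0 with hairpin #1 and 0, 0 and 2 with hairpin #3, which is at the counting limit in every group and gives no fold.

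S100A11 (ENSG00000163191, chr1:152032506-152047907, minus strand) is a widely expressed partner of annexin A1 and was the most abundant member in control cells. Its level was 749.5, 859 and 738 CPM in control libraries A, B and C. It was 281, 367 and 427 CPM with hairpin #1 and 266, 306 and 354 CPM with hairpin #3. No knockdown library reached the lowest control library. The means were 782 CPM ± 67.1, 358 ± 73.3 and 309 ± 44.5 (SD, n = 3), and over both hairpins the log2 fold change was -1.23 (SE 0.14, adjusted p = 3.11e-05, edgeR quasi-likelihood test, Benjamini-Hochberg adjusted). Hairpin #1 gave -1.13 and hairpin #3 gave -1.34, with a difference of -0.21 (95% confidence interval -0.54 to 0.11) that was not called. Without hairpin #1 library A, the hairpin #1 value was -0.98, under the fold threshold, so that call rests on that library.

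S100A10 (ENSG00000197747, chr1:151982915-151994390, minus strand) binds annexin A2 without needing calcium, and the complex holds plasminogen and its activator at the cell surface. Control libraries A, B and C had 554, 633.5 and 537 CPM. Hairpin #1 libraries had 285, 307 and 372.5 CPM, and hairpin #3 libraries had 245, 261 and 289 CPM. Both knockdown groups lay under all control libraries, with means of 575 CPM ± 51.3, 321 ± 45.6 and 265 ± 22.4 (SD, n = 3). Over both hairpins it was -0.97 on the log2 scale (SE 0.12, adjusted p = 7.31e-05, edgeR quasi-likelihood test, Benjamini-Hochberg adjusted), just short of the 2-fold threshold. It was -0.84 with hairpin #1 and -1.12 with hairpin #3, and the latter was called. The difference between the hairpins was -0.28 (95% confidence interval -0.54 to -0.02), with an adjusted p of 0.167 by the same edgeR test. Leaving out control library C or hairpin #1 library C took the pooled value past the threshold, to -1.02 and -1.05.

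S100A16 (ENSG00000188643, chr1:153606886-153613145, minus strand), a widely expressed family member, is the next gene beside S100A14. Its level was 645, 617 and 607.5 CPM in control, 511, 402 and 504 CPM with hairpin #1 and 424, 429 and 474 CPM with hairpin #3. Every knockdown library was lower than every control library. The fall was small beside that of its neighbour, with means of 623 CPM ± 19.2, 472 ± 61.0 and 442 ± 27.5 (SD, n = 3) and a log2 fold change over both hairpins of -0.45 (SE 0.10, adjusted p = 0.00367, edgeR quasi-likelihood test, Benjamini-Hochberg adjusted). The S100A16 and S100A14 genes follow each other on the same strand.

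S100A2 (ENSG00000196754, chr1:153561108-153567890, minus strand), an S100 protein of epithelia, had 34.9, 27.2 and 24.5 CPM in control libraries. It had 22.5, 21.4 and 27.0 CPM with hairpin #1 and 25.1, 17.1 and 19.9 CPM with hairpin #3. These ranges overlapped, and the pooled log2 fold change of -0.38 (95% confidence interval -0.71 to -0.05) had an adjusted p of 0.0784 (edgeR quasi-likelihood test, Benjamini-Hochberg adjusted). The adjusted p was 0.0444 when the pooled change was taken from the edgeR model with 3 groups. For hairpin #3 alone it was -0.48 with an adjusted p of 0.0383 by the same edgeR test, under the fold threshold. Markers of squamous epithelium, where S100A2 is also known, summed to 1.10 to 1.74 CPM over 6 genes in control and 0 to 0.471 CPM in knockdown, with KRT6A at 0 counts throughout. Their part in the S100A2 values was not tested.

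S100A4 and S100A6 are the members most often linked to motile and mesenchymal cells. S100A4, which binds nonmuscle myosin IIA (ENSG00000196154, chr1:153543613-153550136, minus strand), had 8.04, 5.77 and 6.79 CPM in control libraries. It had 7.85, 9.72 and 6.73 CPM with hairpin #1 and 10.2, 7.63 and 7.82 CPM with hairpin #3. The groups overlapped, and the pooled log2 fold change was 0.28 (95% confidence interval -0.10 to 0.65, adjusted p = 0.246, edgeR quasi-likelihood test, Benjamini-Hochberg adjusted). The interval lay inside a 2-fold change in either direction. The summed fibroblast markers rose in the same libraries, and their part in the S100A4 values was not tested.

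S100A6 (ENSG00000197956, chr1:153534599-153536244, minus strand), or calcyclin, had 479.7, 503 and 523 CPM in control. It had 567.5, 666 and 794 CPM with hairpin #1 and 546, 513 and 675 CPM with hairpin #3. In 5 of 6 knockdown libraries it was above all control libraries, and hairpin #3 library B was within their range. The means were 502 CPM ± 21.5, 676 ± 114 and 578 ± 85.8 (SD, n = 3). The pooled log2 fold change was 0.32 (95% confidence interval 0.03 to 0.61), with an adjusted p of 0.088 (edgeR quasi-likelihood test, Benjamini-Hochberg adjusted). The adjusted p was 0.0464 with the replicate letter as a block and 0.0483 from the edgeR model with 3 groups. With hairpin #1 it was 0.43 (adjusted p = 0.0233) and with hairpin #3 0.20 (adjusted p = 0.276), and the difference between hairpins of -0.23 (95% confidence interval -0.52 to 0.07) was not called by the same edgeR test.

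**Figure D2:**
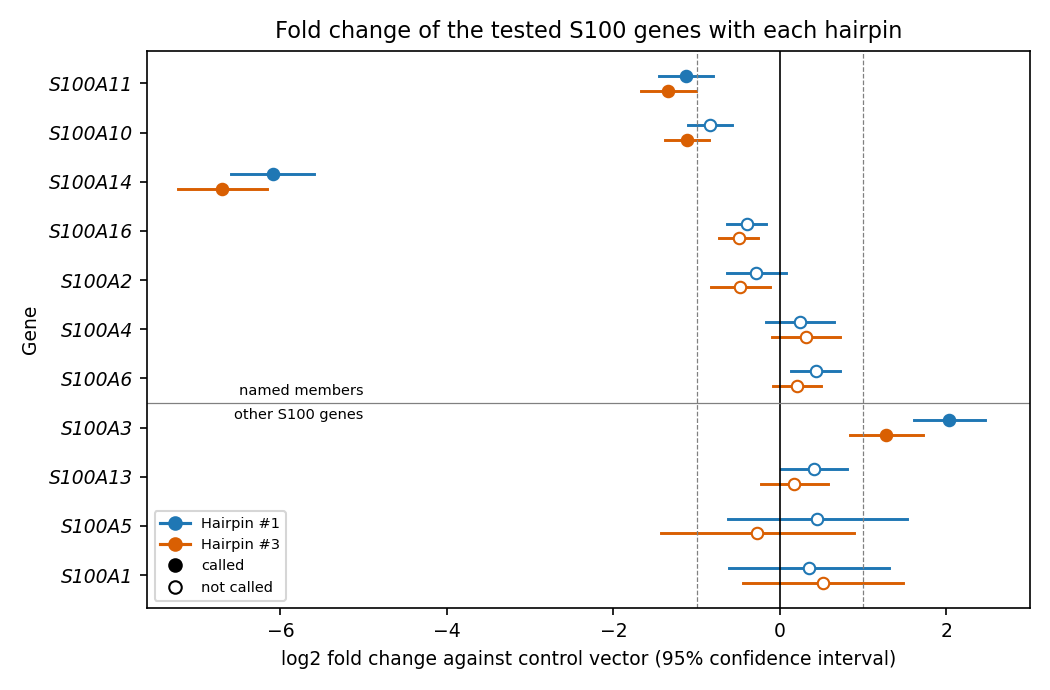
Log2 fold change against control vector for each tested S100 gene and each hairpin, with 95% confidence intervals, filled points for called genes and dashed lines at a 2-fold change. S100A14 stands far to the left at -6.09 and -6.70, S100A11 lies past the lower dashed line with both hairpins, S100A3 past the upper one, and S100A9 is left out because its knockdown libraries were at the counting limit.

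The 2 hairpins were compared directly for all 8 tested members, and 0 were called by edgeR, where 3.93% of all tested genes were called between them. At an unadjusted p under 0.05 there was 1 (S100A10), and DESeq2 gave 0 at an adjusted p under 0.05. For the members whose interval is not given above, the log2 difference of hairpin #3 against hairpin #1 was -0.09 for S100A16 (95% confidence interval -0.33 to 0.14), -0.19 for S100A2 (-0.55 to 0.17) and 0.08 for S100A4 (-0.33 to 0.48). S100A9 was at the counting limit with both hairpins, so their difference could not be measured.

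The order of the abundant S100 genes, compared per length as RPKM, was not the same in control and knockdown cells. The order between genes depends on the length used, which covers all annotated exons of a gene. By CPM the control means were 782 for S100A11, 623 for S100A16, 575 for S100A10 and 502 for S100A6, so S100A6 was not second by that scale. The RPKM values follow. In control cells S100A11 was first at 1150 RPKM ± 98.7 (SD, n = 3), S100A6 second at 517 ± 22.1, and S100A10 (373 ± 33.3) and S100A16 (366 ± 11.3) followed with overlapping libraries. S100A14 (27.7), S100A2 (18.4), S100A9 (6.999) and S100A4 (6.70) were far lower, and the libraries of S100A9 and S100A4 overlapped. In hairpin #1 cells S100A6 was first at 696 RPKM ± 117, with libraries overlapping those of S100A11 at 527 ± 108, and S100A16 (278) and S100A10 (208) followed with overlapping libraries. In hairpin #3 cells S100A6 (595 ± 88.4) and S100A11 (454 ± 65.4) came first, then S100A16 (260.0) and S100A10 (172). The ratio of S100A6 to S100A11 RPKM within each library was 0.410 to 0.496 in control, 1.27 to 1.41 with hairpin #1 and 1.17 to 1.44 with hairpin #3, so no knockdown library overlapped a control library. This ratio is a description without a test, and its size moves with the length scaling. As a ratio of counts it was 0.5855 to 0.7086 in control and 1.675 to 2.056 in knockdown. S100A14 RPKM ranked 1661 of 15975 tested genes in control and 13517 and 14238 with the 2 hairpins. S100A6, S100A10, S100A11 and S100A16 together held 96.8% to 98.5% of all member counts in every library, and the members as a whole took 0.244% to 0.270% of counts in control and 0.153% to 0.208% in knockdown.

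**Figure D3:**
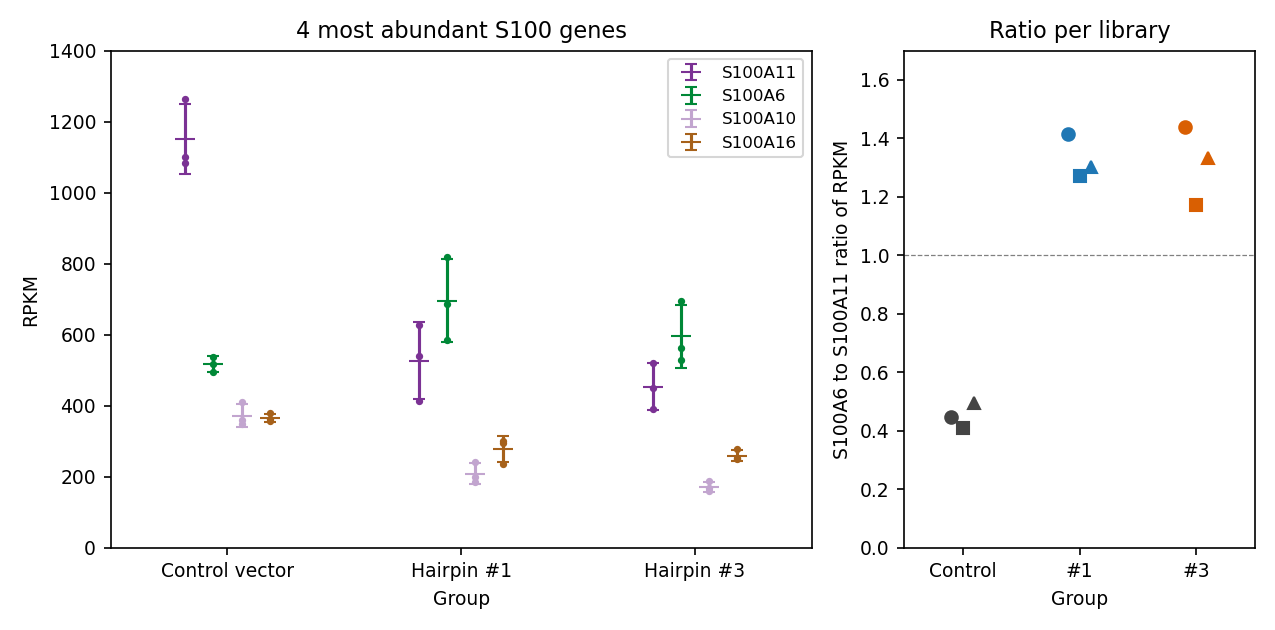
Left, RPKM of the 4 most abundant S100 members by group, with points for libraries and a mean with SD bars (n = 3). Right, the ratio of S100A6 to S100A11 RPKM in each library, which was 0.410 to 0.496 in control and above 1 in all 6 knockdown libraries.

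The other S100 genes of the family mostly had few or no counts, and the one that was called was higher in knockdown. Of 11 listed, 4 passed the filter and 1, S100A3, was called higher, where 7.26% of all tested genes were called higher. With 4 tested, this count is a description. S100A3, known from the hair cuticle, had 64, 71 and 81 counts in control libraries, 228, 298 and 402 with hairpin #1 and 122, 167 and 198 with hairpin #3. All 6 knockdown libraries were above all controls, and over both hairpins the log2 fold change was 1.71 (SE 0.28, adjusted p = 5.71e-04, edgeR quasi-likelihood test, Benjamini-Hochberg adjusted). It rose less with hairpin #3, and the difference between the hairpins was -0.76 (adjusted p = 0.0176 by the same edgeR test). Its gene lies inside the span of S100A4, whose level did not pass the test, but shares 0 exonic bases with it. S100A13, S100A1 and S100A5 were tested and not called, with log2 fold changes of 0.30, 0.43 and 0.14. S100A7, S100A7A, S100A7L2 and S100A12 had no counts. S100B, an astrocyte and melanocyte marker, was not tested and had 0 counts in each control library, 2, 4 and 1 with hairpin #1 and 7, 8 and 10 with hairpin #3. The libraries carried no strand, so reads of overlapping genes on opposite strands cannot be told apart. This touches S100A1 and S100A13, which share 235 exonic bases, and S100A6, which shares 23 exonic bases (2.37% of its length) with an antisense gene. S100A1 also shares 320 exonic bases (10.56% of its length) with AL162258.2 on the opposite strand, a gene with 8 counts in all. On its own strand, S100A13 shares 536 exonic bases (24.19% of its length) with AL162258.1, which had 0 counts.

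**Figure D4:**
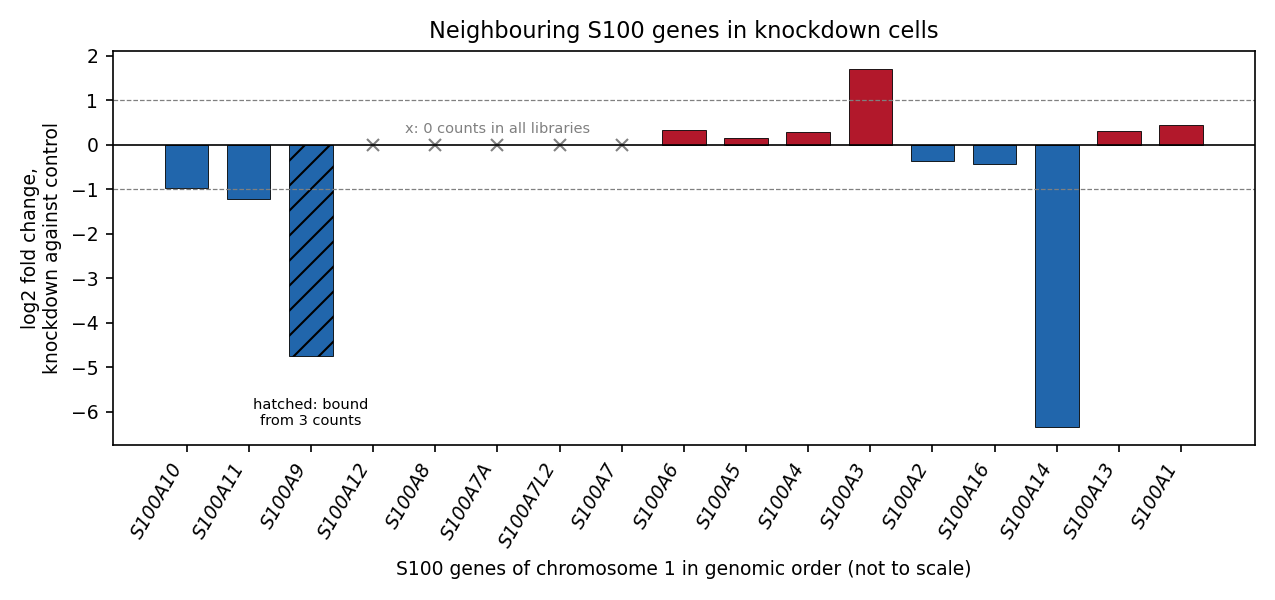
Log2 fold change in pooled knockdown against control for the S100 genes of chromosome 1 in genomic order, with a cross for genes that had 0 counts in all libraries and hatching for the bound on S100A9. The order shows S100A14, at -6.35, beside S100A16 and S100A13, at -0.45 and 0.30.

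The genes around the members were counted in pooled knockdown with all S100 genes left out. Within 1 Mb of S100A14 lay 17 such tested genes averaging 10 CPM or more, whose median log2 fold change was 0.10, and 0 of them were called (edgeR's quasi-likelihood test). Around S100A9 there were 15 such genes, with a median of 0.14 and 0 called. These windows overlap over most of their length, so they are not separate neighbourhoods. With hairpin #3 alone, 1 gene was called lower around S100A14 and 1 around S100A9 (7.83% of all tested genes). The lowest log2 fold change was -1.134 in both windows, so this is the same gene counted in each. Around S100A11 there were 20, with a median of 0.06 and 2 called, and around S100A10 21, with 3 called. Of all tested genes, 14.7% were called in either direction, and counts in windows this small are descriptions. The genes called around S100A11 and S100A10 in pooled knockdown, S100 genes aside, were all lower. They were TUFT1 (log2 fold change -1.16), FAM63A (-1.13) and CGN, which encodes the tight junction protein cingulin (-4.97). Around S100P on chromosome 4 there were 13, with a median of -0.34, a range of -4.20 to 1.05 and 2 called, against the same 14.7%. Of 23 listed genes of the skin barrier region, most lying between S100A11 and S100A9, 19 had no counts and 2 were tested. IVL, which encodes the cornified envelope protein involucrin, had no count in any knockdown library. It was at least 24.7-fold lower than its control mean of 3.71 CPM ± 1.49 (SD, n = 3). IVL passed the filter on low counts through the control libraries only, so it had to differ. THEM4, which lies outside that stretch, had a log2 fold change of 0.49 (adjusted p = 0.00152, edgeR's quasi-likelihood test), under the fold threshold. The S100-fused genes (the filaggrin family, 7 listed) were not tested, none having passed the filter.

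The partners of these proteins were taken by role. Annexins, the calcium-dependent membrane binders that S100A10, S100A11 and S100A6 attach to, had 11 tested of 13, with 1 called higher and 2 lower and a median log2 fold change of -0.09, where 7.26% of all tested genes were called higher and 7.40% lower. ANXA2, the partner of S100A10, was at 3029, 3319 and 3475 CPM in control, 2446, 2338 and 2719 CPM with hairpin #1 and 2109, 2198 and 2295 CPM with hairpin #3. All knockdown libraries lay under control, and the log2 fold change was -0.48 (adjusted p = 0.00283, edgeR quasi-likelihood test, Benjamini-Hochberg adjusted), which did not reach the fold threshold. ANXA1, the partner of S100A11, had means of 537.5 CPM ± 17.9, 587 ± 36.7 and 642 ± 42.0 (SD, n = 3) and a log2 fold change of 0.19 (adjusted p = 0.121 by the same edgeR test). ANXA11, a partner of S100A6, had -0.42 (adjusted p = 0.00258 by the same edgeR test). All its knockdown libraries lay under control, and it did not reach the fold threshold. The called annexins were ANXA9 (-2.56), ANXA3 (-1.15) and ANXA6 (1.98).

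Of the 12 intracellular targets reported here, 0 were called higher and 1 lower, where 7.26% and 7.40% of all tested genes were. Their median log2 fold change was 0.0087, and with so few genes these counts are descriptions. Ezrin (EZR), a target of S100P, fell from 941 CPM ± 26.6 to 392 ± 106 and 389 ± 85.8 (SD, n = 3), a log2 fold change of -1.27 (adjusted p = 6.11e-05, edgeR quasi-likelihood test, Benjamini-Hochberg adjusted). MYH9, the heavy chain of the myosin that S100A4 binds, had 0.02, and CACYBP, the calcyclin-binding protein, had -0.0037. Of 8 extracellular receptors, 4 were tested and 1 was called (14.7% of all tested genes in either direction), TLR4, which rose by 1.22 from 6.30 CPM ± 1.07 to 17.5 ± 3.89 and 11.8 ± 2.93 (SD, n = 3). AGER had 0.30 and was not called (adjusted p = 0.274 by the same edgeR test). In the plasminogen system that S100A10 serves, 7 of 8 genes were tested, with 1 higher and 1 lower, against the same 7.26% and 7.40% of all tested genes. PLAT, tissue plasminogen activator, went from 277 CPM ± 97.1 to 48.5 ± 10.97 and 40.1 ± 10.8 (SD, n = 3), a log2 fold change of -2.64, and SERPINE2, an inhibitor of serine proteases, had 1.66. SERPINE2 differed between the hairpins, with 2.15 for hairpin #1, 0.90 for hairpin #3 and a called difference of -1.25 (adjusted p = 4.05e-05 by the same edgeR test).

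**Figure D5:**
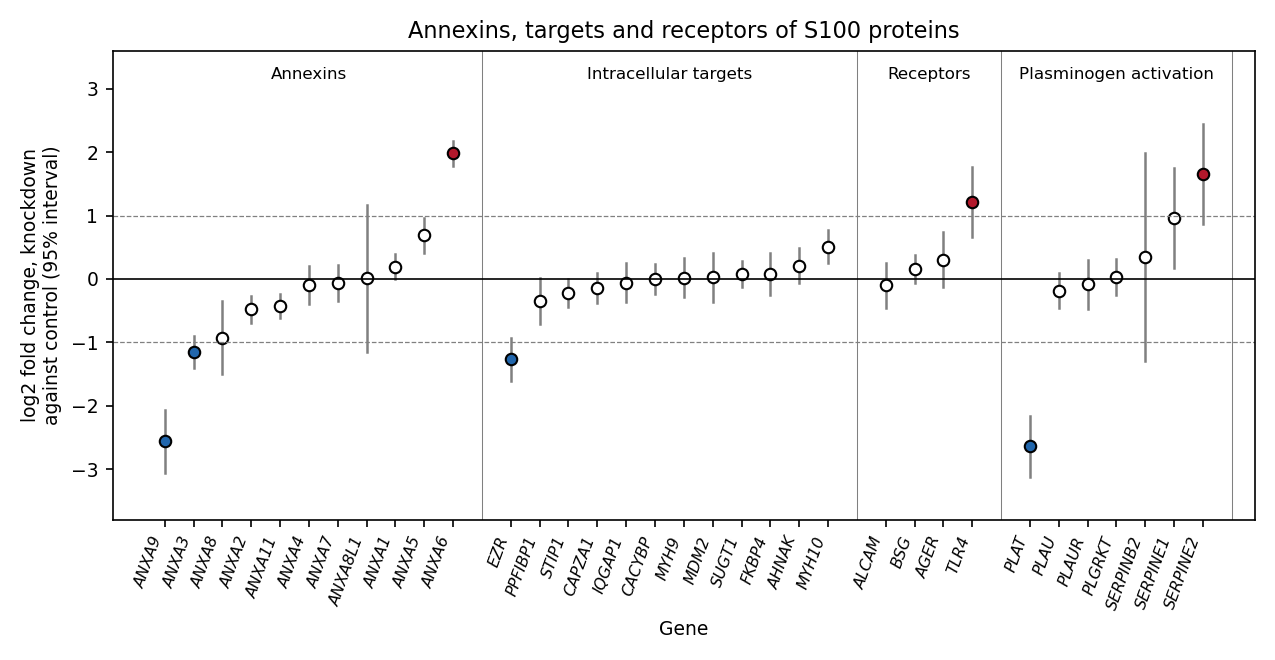
Log2 fold change in pooled knockdown against control with 95% intervals for annexins, intracellular targets, receptors and plasminogen activation genes, with filled points for called genes and dashed lines at a 2-fold change. Most points lie within the dashed lines, with PLAT and ANXA9 lowest at -2.64 and -2.56 and ANXA6 highest at 1.98.

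For the tested members other than S100A9, which was at the counting limit in knockdown, up to 2 of the genes most alike, among 9687 others, were named by the smallest root mean square difference of centred log2 CPM over the 9 libraries. S100A14 was close to SPINT1 (0.29), a value that the 0.5 CPM added before the log2 affects, since S100A14 was near that level in knockdown. S100A11 was closest to SIGIRR (0.11) and TUFT1 (0.14), the latter a gene within its 1 Mb window, and S100A10 to OSTF1 (0.12) and PGAP2 (0.12). S100A6 was closest to RIN3 and BLVRA, S100A16 to DDX11 and PQLC1, S100A2 to MORC4 and RFFL, and S100A4 to CAMSAP2 and BPTF.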

How the data were processed

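RNA of OVCA433 cells was sequenced from poly(A)-selected, non-directional libraries. The deposited values are raw read counts per gene, which the authors made with HISAT2 2.0.5 and featureCounts 1.5.0-p3 on hg38, per the submitters' processing notes. The table also gives a gene length, used here for RPKM. CPM and RPKM were computed here from the counts with TMM factors. Genes were kept with filterByExpr (minimum count 10, minimum total 15), which left 15975 genes holding 99.9% of the counts. Library totals were 16850854 to 23890191 counts. PCR reads without molecular identifiers are not independent molecules, so the limits of 3 counts cover counting error only. Differences were tested with edgeR 4.0.16 (glmQLFit, glmQLFTest, run under R 4.3.3), and p-values were adjusted by Benjamini-Hochberg over all tested genes. Both hairpins formed 1 knockdown arm against control, and a model with 3 groups over the 9 libraries gave each hairpin against control and the hairpins against each other. Standard errors came from each fold change divided by the root of its F value. A call needed an adjusted p under 0.05 and a log2 fold change of 1 or more in size. The tests were checked on simulated counts.

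The members and gene lists were chosen with earlier results of these data known. All 10 members, MPZL3 and every other tested S100 gene were named. Of each further list, up to 4 called genes with the largest change were named, with ANXA1, ANXA2, ANXA11, MYH9, CACYBP, EZR, AGER and TLR4 whatever their values. The genes most like a member were the 2 with the smallest root mean square difference among genes averaging 10 CPM or more, with 0.5 CPM added before the log2. Neighbour counts left out all S100 genes. THEM4, FAM63A, TUFT1, CGN, PAX8, FAP, S100B and the genes at 0 counts were named after their values were seen. A few genes that this rule names are not reported here. Alternatives were DESeq2 1.42.0, other scalings and filters, the replicate block and leaving out libraries. Whether the biological replicates were separate cultures is not stated further, so p-values measure the spread between these libraries.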

Additional observations from a re-analysis of the deposited data

Results flagged for a closer look

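S100A9 was marked because 1 of the 6 knockdown libraries stood apart from the others. Hairpin #1 library B had 1 read and the other 5 libraries had 0, so its gap to the nearest library was the whole range (a ratio of 1). This is a single read, and with the other libraries at 0 any single read gives this ratio, so the usual rate of about 1 in 20 groups marked by chance is not a guide here.

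S100A3 was marked because the hairpins differed, with a log2 difference of hairpin #3 against hairpin #1 of -0.756 (adjusted p = 0.0176, edgeR quasi-likelihood test, Benjamini-Hochberg adjusted). Control cells averaged 3.50 CPM ± 0.387, hairpin #1 cells 14.35 ± 3.365 and hairpin #3 cells 8.485 ± 1.13 (SD, n = 3).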

How the results depend on the processing

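The counts of S100 members called kept their value or stayed within 1.5 times of it under DESeq2, other scalings, other filters on low counts and fits of only the libraries compared. With no fold threshold, pooled knockdown gave 5 members and hairpin #1 gave 6. Fits that each left out a single library gave 3 to 4 members in pooled knockdown, 2 to 3 for hairpin #1, 4 for hairpin #3 and 0 between the hairpins. S100A11 with hairpin #1 was no longer called without hairpin #1 library A (-0.98) or, in a fit chosen after seeing the data, without the 3 replicate A libraries (-0.998, just under the fold threshold), which left 3, 2, 4 and 0 members called. The S100A4 difference between hairpins, 0.08 with all libraries and not called, turned to -0.0387 without hairpin #1 library C, -0.0645 without hairpin #3 library A and -0.0814 without the replicate A libraries, with a range of -0.0814 to 0.231 over the fits that left libraries out, and the cause was not tested. The replicate block gave 3, 3, 4 and 0 members called, so it changed none of these counts, but it took the adjusted p of S100A6 in pooled knockdown from 0.088 to 0.0464 (0.0483 in the 3-group model). S100A2 passed in the 3-group model (0.0444) and without hairpin #1 library C (0.0442). Both stayed under the fold threshold. Single-hairpin results also depended on the setting, over 18 settings by edgeR or DESeq2 (Benjamini-Hochberg adjusted). The setting with no fold threshold is among the 18 and only repeats the adjusted p of the main fit. S100A2 with hairpin #3 had an adjusted p under 0.05 in 13 of the 18, that repeat included (highest 0.162). S100A6 with hairpin #1 did so in 15, again with the repeat (highest 0.116). The S100A10 difference between hairpins was under 0.05 in 1 (0.038). The main fit did not pair the libraries by letter, because not every same-letter correlation was clear. Same-letter deviations correlated between 0.0642 and 0.678 over 9 pairs, all positive, against -0.672 to 0.327 over 18 pairs of unlike letters. Control B, however, correlated better with hairpin #1 library C (0.327) than with hairpin #1 library B (0.0642). The libraries thus shared some variation by letter, which the main p-values leave out and the replicate block takes in. S100A8, S100P and knockdown S100A9 are limited by depth, at 3 counts or fewer.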
